A study of Mus musculus with 4 samples.

Results

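The genes described here are 9 genes of Nodal signalling, measured in E14 mouse embryonic stem cells with and without depletion of Usp22. They comprise the ligand gene Nodal, the antagonist genes Lefty1 and Lefty2, the co-receptor gene Tdgf1, the receptor genes Acvr1b and Acvr2b, the signal transducer gene Smad2, and the genes Smad7 and Skil, which encode inhibitors inside the cell. All 9 were found among 19938 genes with a value, each on 1 row of the deposited table that the platform annotation gives to that gene alone, and 0 further rows named any of them. The genes were selected on their place in the pathway with earlier results of these arrays known, among them the higher signal of Lefty1 and Lefty2, so their changes are a description of these arrays and not independent evidence. Taking the brightest row per gene decided nothing for these genes.

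The Usp22-depleted group consisted of E14 cells infected with lentivirus carrying an shRNA against Usp22, and the control group of E14 cells infected with lentivirus carrying an shRNA named Luc. Each group had 2 arrays. All cells were grown without feeders on gelatin in serum medium with LIF, the MEK inhibitor PD0325901 and the GSK3 inhibitor CH99021. The labels do not state the number of shRNA sequences, the time after infection, or whether the replicates came from different cultures. The p-values then describe the spread between these arrays alone, pooled over genes, which may be technical. In the fit used here every gene had the same standard error of 0.27 on the log2 scale. Its p-values and intervals therefore follow the log2 fold change and not the spread of the single gene.

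Nodal is a secreted ligand of the TGF-beta superfamily. It binds activin receptors of type I (Acvr1b) and type II (Acvr2b) together with the co-receptor Cripto, the product of Tdgf1, and the activated type I receptor phosphorylates Smad2, which enters the nucleus with Smad4 and binds DNA with partners such as Foxh1. Lefty1 and Lefty2 are themselves targets of the pathway and encode secreted proteins that block Nodal and its co-receptor, a negative feedback loop known from the mouse embryo. Smad7 and Skil (SnoN) are also targets in many cell types. Smad7 acts on the receptors, and SnoN represses transcription together with Smads.

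The RefSeq promoter table (build GRCm38.p6) gave windows for Nodal, Tdgf1, Acvr1b and Acvr2b. Windows of Lefty1, Lefty2, Skil, Smad2 and Smad7 were not analysed here. The 4 are shown as the promoter regions of the genes that act above the Smads. Each line gives the 250 bases before the start of the gene, 5′ to 3′ on the strand of the gene. Capitals mark the Smad motif CAGAC on either strand.

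Nodal, chr10:61417722-61417971, plus strand: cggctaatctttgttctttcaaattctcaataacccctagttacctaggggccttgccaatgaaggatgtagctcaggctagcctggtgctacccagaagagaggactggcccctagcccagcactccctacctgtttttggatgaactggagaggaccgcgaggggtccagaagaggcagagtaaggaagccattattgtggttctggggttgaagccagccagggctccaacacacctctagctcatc
Tdgf1, chr9:110946159-110946408, minus strand: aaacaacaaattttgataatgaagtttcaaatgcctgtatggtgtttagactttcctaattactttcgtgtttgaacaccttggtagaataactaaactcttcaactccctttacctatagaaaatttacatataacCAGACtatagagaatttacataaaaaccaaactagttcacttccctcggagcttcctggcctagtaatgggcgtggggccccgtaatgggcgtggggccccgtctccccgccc
Acvr1b, chr15:101173822-101174071, plus strand: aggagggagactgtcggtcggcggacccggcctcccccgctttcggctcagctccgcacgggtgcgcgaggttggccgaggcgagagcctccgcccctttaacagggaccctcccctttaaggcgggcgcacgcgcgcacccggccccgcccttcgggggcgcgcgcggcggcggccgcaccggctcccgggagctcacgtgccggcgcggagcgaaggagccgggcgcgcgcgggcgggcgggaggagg
Acvr2b, chr9:119401928-119402177, plus strand: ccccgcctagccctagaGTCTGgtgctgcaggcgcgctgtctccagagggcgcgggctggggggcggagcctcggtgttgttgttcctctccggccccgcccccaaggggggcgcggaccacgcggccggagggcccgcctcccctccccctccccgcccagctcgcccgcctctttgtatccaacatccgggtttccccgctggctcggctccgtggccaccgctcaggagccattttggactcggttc

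The receptor windows were rich in G and C. Acvr1b had 78.8% GC and 42 CpG dinucleotides and Acvr2b had 72.8% and 24, against a median of 52.4% and 6 over all 32851 windows in the table. Nodal had 53.2% GC and 3 CpG dinucleotides, and Tdgf1 had 42% and 7. The Smad motif CAGAC occurred once each in the windows of Tdgf1 and Acvr2b, and 42.2% of all windows held it. The Foxh1 motif AATNCACA (in 3.18% of all windows) and the Tcf and Lef motif CTTTGAT (3.21%) had 0 matches in these windows, both strands searched and overlaps between motifs allowed. These letters are a description of the windows only.

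Usp22 itself was lower on both depleted arrays, at log2 signals of 8.23 and 8.29 in Usp22-depleted cells and 9.41 and 9.36 in control cells (log2 fold change −1.12, limma adjusted p = 0.00826). Of the 10 stem cell markers, 9 (all but Fut4) lay above the receptor background, the 95th percentile (6.99 on the log2 scale) of the mean signals of 1190 olfactory and vomeronasal receptor genes. Control replicate 2 stood apart from the other arrays. The Pearson correlation across genes was 0.978 between the depleted arrays and 0.941 between the control arrays, and between control replicate 2 and the depleted arrays it was 0.877 and 0.908. Control replicate 1 was closer to the depleted arrays, at 0.951 and 0.974, than to control replicate 2. Control replicate 2 gave the lowest or highest of the 4 values for 80.5% of all genes and for 8 of the 9 genes described here. It was the lowest in 7 of them and the highest for Smad7. Over all 19938 genes it was the lowest for 7542 and the highest for 8507. Depleted replicate 1 was lowest or highest for 61.8% of all genes (lowest for 7134 and highest for 5182), and highest in 6 of the 9. Values without control replicate 2 are given beside many of the results. A fit without 1 control array takes its spread from the depleted pair alone, whose arrays differed by a median of 0.175 on the log2 scale against 0.363 for the control arrays. Its standard error was 0.23 against 0.27 with all 4 arrays, so its p-values assume that the lone control array varies as little as the depleted ones. The summed signal of markers of other cell types was also lower in Usp22-depleted cells for the trophectoderm list (1668 to 1677 in depleted cells and 2022 to 2046 in control cells, 5 of 8 above background), the primitive endoderm list (721 to 751 and 835 to 1054, 3 of 8) and the mesoderm and primitive streak list (1246 to 1304 and 1463 to 1796, 4 of 7). Sums of the fibroblast or feeder list (1563 to 1583 and 1528 to 1682, 5 of 8) and of the neuroectoderm list (1400 to 1448 and 1428 to 1460, 3 of 6) overlapped between groups. The stem cell list also had lower sums without overlap, 13578 to 13805 in depleted cells and 14162 to 14204 in control cells. On each of these lists 0 markers were called, and the sums include genes below the background. Of all genes taken singly, 33.3% were lower without overlap. In bulk RNA, fewer cells of a type and less RNA per cell cannot be told apart, and the part of these differences in the results below was not tested.

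Lefty1 and Lefty2, the Nodal antagonist genes, rose after Usp22 depletion, by 2.24-fold and 2.18-fold, while the ligand and co-receptor genes did not pass the test. Of the 9 genes, 2 were called higher and 0 lower (limma adjusted p under 0.05 over all genes), against 2.62% of all genes called higher and 0.105% called lower. At an unadjusted p under 0.05, 5 were higher and 0 lower, against 15.4% and 6.63% of all genes. Both arrays of a group lay beyond both of the other for 5 genes in the higher direction (Lefty1, Lefty2, Skil, Acvr1b and Acvr2b) and for 1 in the lower (Smad7), against 27.4% and 33.3% of all genes. With a fold of at least 1.5 added, the counts were 3 higher (Lefty1, Lefty2 and Skil) and 0 lower, against 12.1% and 3.35% of all genes. The median log2 fold change of the 9 genes was 0.53, and that of all genes −0.12. Without control replicate 2, only Lefty1 of the 9 was called, and the median of the 9 was 0.17. Because the genes were chosen with results in view, nothing about the pathway as a whole is read from these shares.

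**Figure D1:**
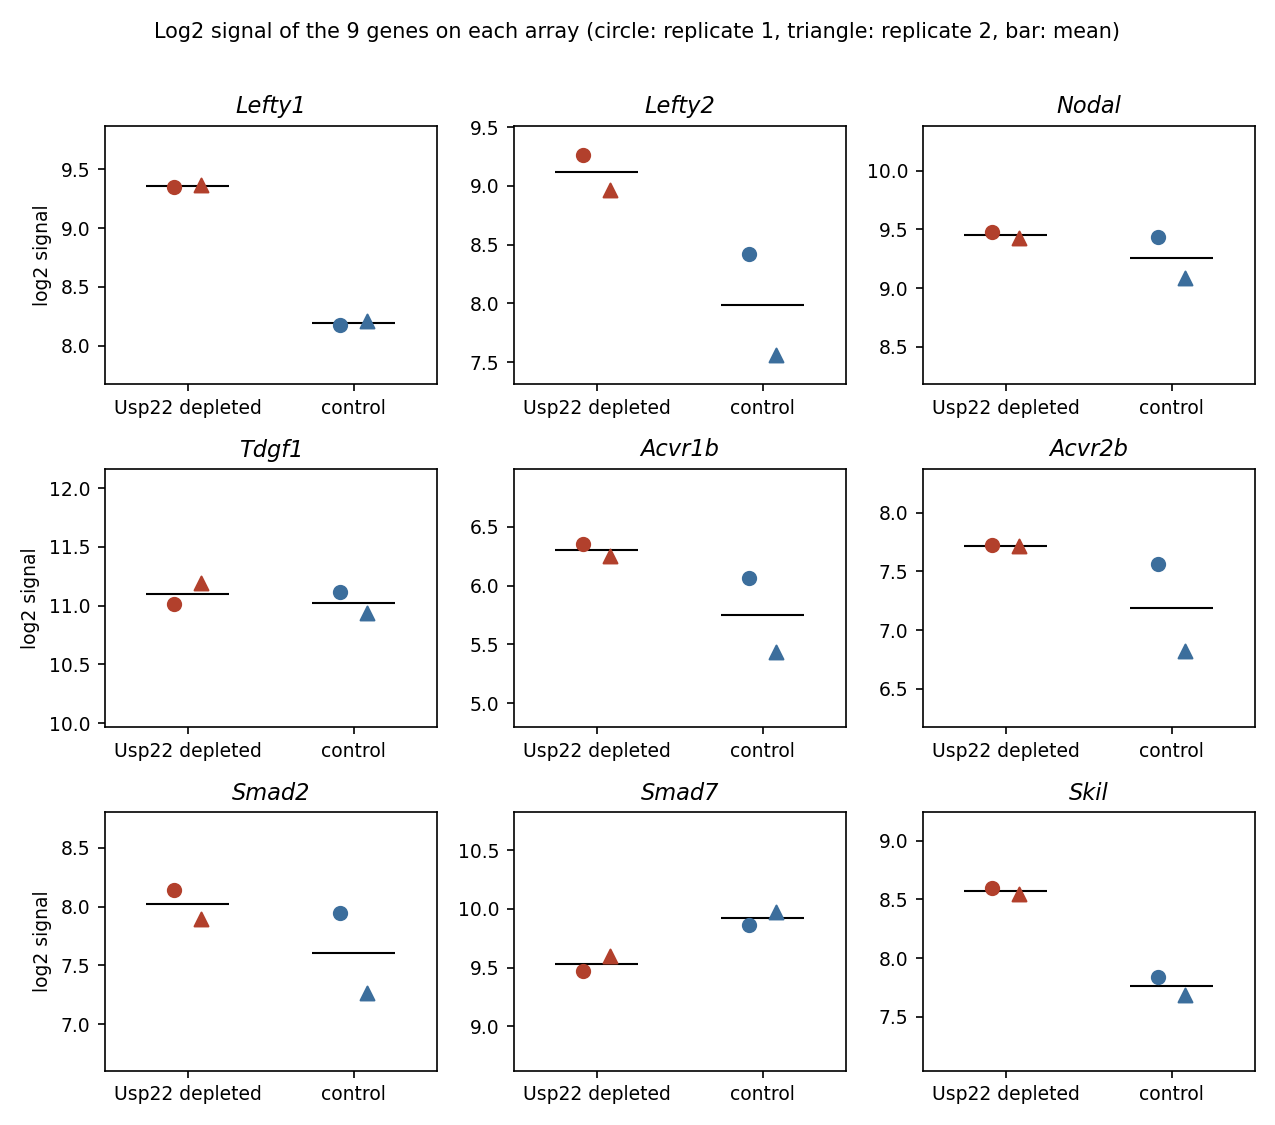
Log2 signal (vertical axis, each panel spanning the same range of log2 units) of the 9 genes on the 2 Usp22-depleted arrays (left) and the 2 control arrays (right). Circles are replicate 1, triangles replicate 2 and bars the group means. Lefty1 and Skil form tight, separate groups, while for Lefty2, Acvr1b, Acvr2b and Smad2 control replicate 2 lies well below control replicate 1.

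Lefty1 gave the cleanest separation. Its log2 signal was 9.35 and 9.36 in Usp22-depleted cells and 8.18 and 8.21 in control cells, or 9.36 ± 0.011 and 8.19 ± 0.021 (SD, n = 2 each). The arrays of each group were nearly equal, and a gap of 1.14 separated the groups. The rise was 2.24-fold (log2 fold change 1.17, 95% interval 0.64 to 1.69, limma adjusted p = 0.00603), and 0.216% of all genes had a higher log2 fold change. On the linear scale of the deposited table, the intensities were 664 and 680 in Usp22-depleted cells and 292 and 284 in control cells. Without control replicate 2 the log2 fold change was 1.20 (limma adjusted p = 0.00245, with the lone control array assumed to vary like the depleted pair). Without either depleted array the value held (1.17 without replicate 1 and 1.15 without replicate 2), but with a single depleted array the test no longer passed (limma adjusted p = 0.830 and 0.361). Over all alternatives the adjusted p ran from 3.54e-06 to 0.830.

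Lefty2 rose by a similar amount but with wider spread. Its log2 signal was 9.26 and 8.97 in Usp22-depleted cells and 8.42 and 7.56 in control cells, or 9.12 ± 0.21 and 7.99 ± 0.61 (SD, n = 2 each). The groups did not overlap, with a gap of 0.55, but the control arrays differed from each other by 0.86, more than that gap. The rise was 2.18-fold (log2 fold change 1.13, 95% interval 0.60 to 1.65, limma adjusted p = 0.00791). Without control replicate 2 the log2 fold change was 0.70 and the call was lost (limma adjusted p = 0.133). It was 0.96 without depleted replicate 1 and 1.26 without depleted replicate 2, where the limma adjusted p was 0.830 and 0.339 (range over all alternatives 1.31e-05 to 0.830). Lefty1 and Lefty2 encode closely related proteins, and cross-hybridisation between their probes was not tested.

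Nodal, the ligand gene, did not pass the test. Log2 signals of Nodal were 9.48 and 9.42 in Usp22-depleted cells and 9.44 and 9.08 in control cells. Control replicate 1 fell between the depleted arrays, so the groups overlapped. The log2 fold change was 0.19 (95% interval −0.33 to 0.72, limma adjusted p = 0.615), and 0.017 without control replicate 2. The interval leaves room for a rise of up to 0.72 on the log2 scale, so a change of that size cannot be told from none with these arrays.

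Tdgf1, the gene of the co-receptor Cripto, had the smallest difference between group means of the 9. It read 11.02 and 11.19 in Usp22-depleted cells and 11.11 and 10.94 in control cells on the log2 scale, and the groups interleaved. The log2 fold change was 0.077 (95% interval −0.45 to 0.60, limma adjusted p = 0.842), and its sign turned without control replicate 2 (−0.014) and without depleted replicate 2 (−0.0070).

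The change of Lefty1 can be set against that of Nodal within each array, which cancels any factor common to a whole array. The log2 difference of Lefty1 from Nodal, centred on its control mean, was 0.93 and 1.01 in Usp22-depleted cells and −0.19 and 0.19 in control cells. For Lefty2 it was 1.05 and 0.81 in depleted cells and 0.25 and −0.25 in control cells, and for Skil 0.61 and 0.62 in depleted cells and −0.10 and 0.10 in control cells. The groups did not overlap for these 3 genes, nor for Acvr1b and Acvr2b, whose group means lay 0.36 and 0.34 apart, while those of Tdgf1 and Smad2 overlapped. With 2 arrays in each group, the smallest two-sided p of an exact permutation test is 0.333. On the deposited values with no scaling between arrays, the group means of these differences lay 0.96 (Lefty1), 0.87 (Lefty2) and 0.57 (Skil) apart, against 0.97, 0.93 and 0.62 after quantile normalization. Those of Acvr1b and Acvr2b lay only 0.12 and 0.19 apart with no scaling, still without overlap. The share of all genes that separate from Nodal in this way was not computed. By their own signal, 27.4% of all genes were higher and 33.3% lower without overlap.

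Skil, which encodes the Smad corepressor SnoN, had the third largest difference of the 9 genes. Its log2 signal was 8.60 and 8.54 in Usp22-depleted cells and 7.84 and 7.69 in control cells, or 8.57 ± 0.038 and 7.76 ± 0.11 (SD, n = 2 each). Both depleted arrays lay at least 0.71 above both control arrays. The difference was 1.75-fold (log2 fold change 0.81, 95% interval 0.28 to 1.33) and did not pass in the fit used here (limma adjusted p = 0.0678). It passed in 8 of 13 alternative settings, with a limma adjusted p of 0.0220 when each array was centred on its median and 0.0375 with a trended, robust variance in limma. The 8 include the fit without control replicate 1, from which nothing is read. Of all genes, 2.62% were called higher in the fit used here. In other passing settings this share was 4.65% (median centring), 6.94% and 6.91% (filters on dim genes), 4.29% (replicate block), 3.31% (offset), and 1.64% and 1.91% (trend alone and with robust settings). Skil did not pass without scaling, with the mean of rows, without control replicate 2 or without either depleted array. The log2 fold change was 0.75 without control replicate 2.

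Smad7, the inhibitory Smad gene, was the only one of the 9 with a lower mean in depleted cells. Its log2 signal was 9.47 and 9.60 in Usp22-depleted cells and 9.86 and 9.97 in control cells. The groups did not overlap, with a gap of 0.27. The log2 fold change was −0.39 (95% interval −0.91 to 0.14, limma adjusted p = 0.338), and it depended on the scaling, standing at −0.31 with no scaling and −0.17 with each array centred on its median. Nodal was not set against Smad7. Set against Smad7 within each array and centred on the control mean, each of the other 7 genes had groups that did not overlap. Their means lay from 0.46 (Tdgf1) to 1.55 (Lefty1) apart. Smad7 itself was lower on both depleted arrays, which raises each of these differences. Tdgf1 and Smad2 overlapped between groups by their own signal and when set against Nodal. The share of all genes that separate in this way was not computed, so nothing about the 7 genes is read from it.

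The receptor genes were higher on both depleted arrays, but by amounts that rested on 1 control array. Acvr2b, a type II receptor gene, had log2 signals of 7.72 and 7.72 in Usp22-depleted cells and 7.56 and 6.82 in control cells. Control replicate 1 lay within 0.16 of the depleted arrays and control replicate 2 lay 0.74 below control replicate 1. The log2 fold change was 0.53 (95% interval 0.0043 to 1.06, limma adjusted p = 0.224), and 0.17 without control replicate 2. Acvr1b, the type I receptor gene, had log2 signals of 6.35 and 6.25 in Usp22-depleted cells and 6.06 and 5.43 in control cells, the lowest again on control replicate 2. Its log2 fold change was 0.55 (95% interval 0.025 to 1.08, limma adjusted p = 0.209), and 0.24 without that array. By its mean over the 4 arrays, Acvr1b was the 1 gene of the 9 that did not lie above the receptor background.

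Smad2, the gene of the receptor-activated Smad, had the same shape. Log2 signals of Smad2 were 8.15 and 7.89 in Usp22-depleted cells and 7.95 and 7.26 in control cells, so that control replicate 1 fell between the depleted arrays. The log2 fold change was 0.41 (95% interval −0.11 to 0.94, limma adjusted p = 0.310), and 0.076 without control replicate 2. When control replicate 1 was left out in place of replicate 2, the log2 fold changes of Acvr1b, Acvr2b and Smad2 were 0.88, 0.90 and 0.76 (limma adjusted p = 0.00316, 0.00247 and 0.00869). That fit has a lone control array and the spread of the depleted pair, and it called 24.6% of all genes higher and 21.4% lower, so nothing is read from these 3 passing.

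**Figure D2:**
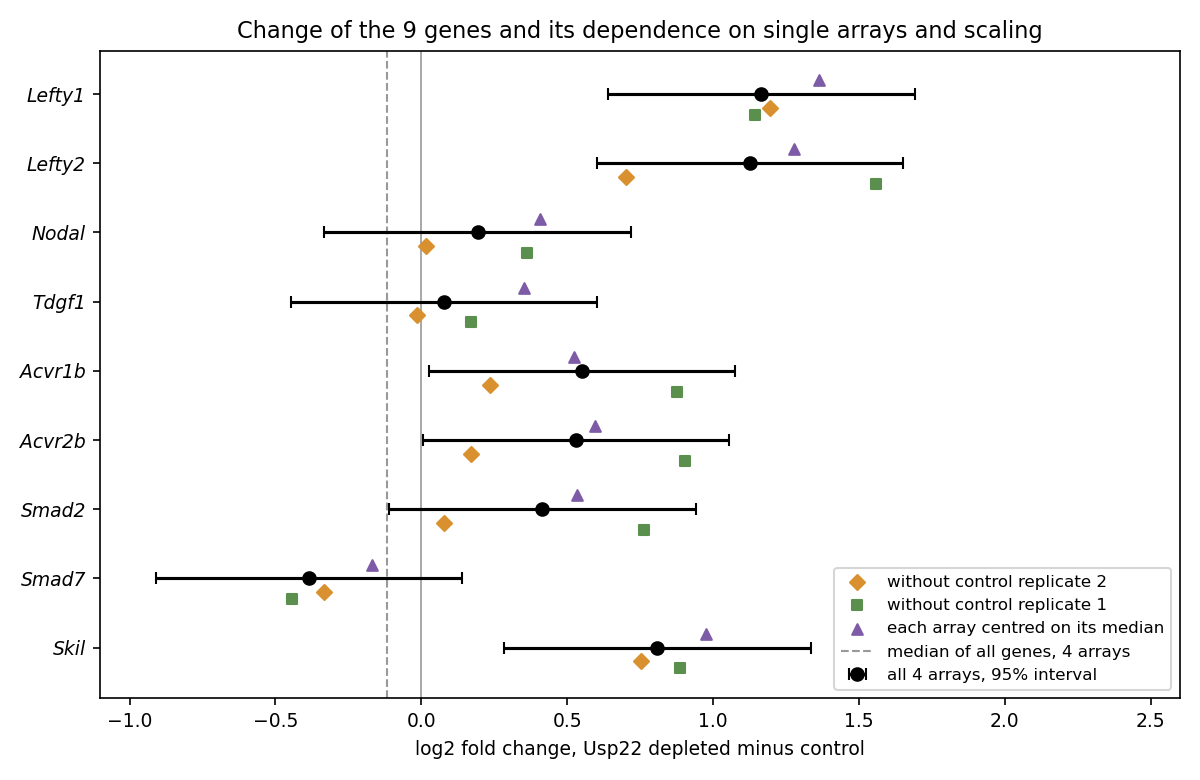
Log2 fold change (horizontal axis, Usp22 depleted minus control) of the 9 genes from all 4 arrays (black circles with 95% limma intervals), without control replicate 2 (diamonds), without control replicate 1 (squares) and with each array centred on its median (triangles). The diamonds of Lefty1 and Skil, at 1.20 and 0.75, stay near their circles, while those of Acvr1b, Acvr2b and Smad2 lie between 0.076 and 0.24.

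The scaling between arrays moved the whole table. The median log2 fold change of all genes was −0.12 after quantile normalization, −0.24 on log2 values with no scaling and −0.095 with each array centred on its median. Relative to that median, Lefty1 stood at 1.28 after quantile normalization and at 1.46 on unscaled values, Lefty2 at 1.25 and 1.37, and Skil at 0.93 and 1.07. Nodal stood at 0.31 and 0.50 and Tdgf1 at 0.20 and 0.45, while Smad7 stood at −0.27 and −0.075. All genes together showed 2 humps, 1 below and 1 above 0, and the receptor genes and Smad2 fell within the upper hump. Of all genes, 15.2% had a higher log2 fold change than Acvr2b, 13.9% than Acvr1b and 21.9% than Smad2.

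**Figure D3:**
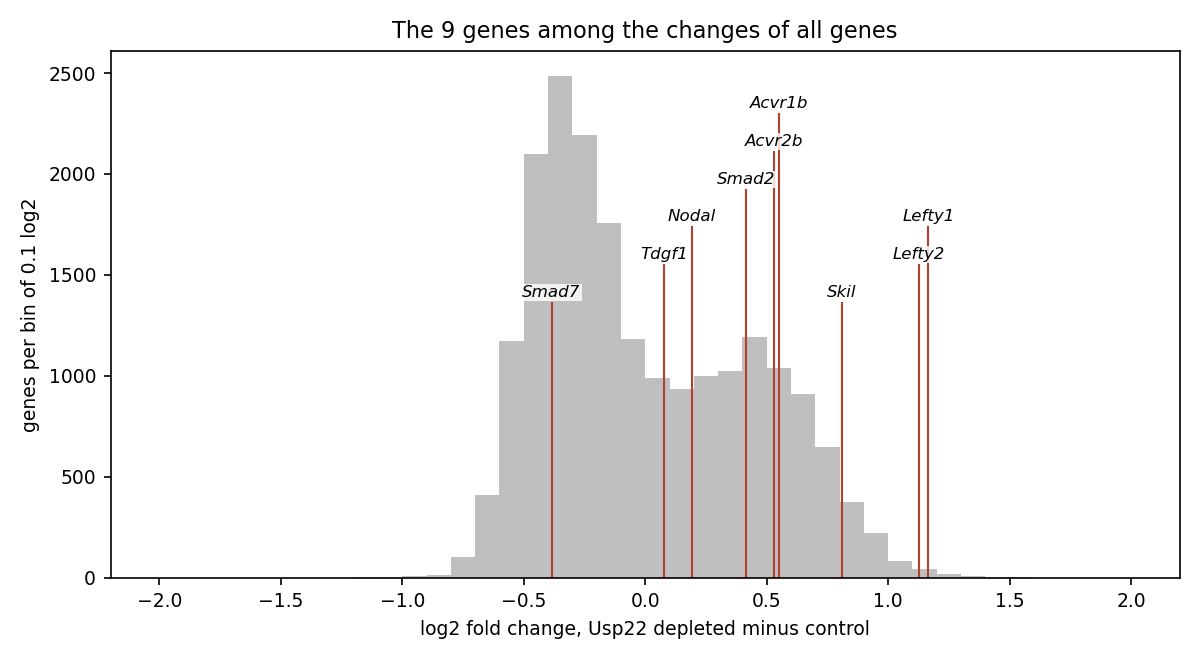
Number of genes (vertical axis, bins of 0.1) by log2 fold change (horizontal axis, Usp22 depleted minus control) over all 19938 genes, in grey, with the 9 genes as red lines whose heights only separate the labels. Lefty1 and Lefty2 lie in the upper tail, at 1.17 and 1.13, whereas Acvr1b, Acvr2b and Smad2 lie inside the upper hump.

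The other genes of the Nodal and activin pathway were taken from a list of 49, of which 45 had a value. The other 4 were not analysed here. Of the 45, 0 were called higher and 0 lower by limma, while at an unadjusted p under 0.05 there were 9 higher and 4 lower, against 15.4% and 6.63% of all genes. With limma's intensity trend, alone or with robust settings, 2 were called lower, Yap1 (−0.56) and Tgif1 (−0.50), which encode transcriptional regulators. Under the trend alone 1.43% of all genes were called lower, and 1.70% with robust settings. Without overlap, 12 were higher and 15 lower, close to the shares of all genes given above. The median log2 fold change of the 45 was −0.21, and −0.047 without control replicate 2. By their mean over the 4 arrays, 27 of the 45 lay above the receptor background. Of those named below, Tgfbr1, Acvr1, Acvr1c, Foxh1, Zfyve9, Nedd4l, Inha, Pcsk5, Ltbp1, Cer1, Dand5 and Eomes did not. Acvr2a had a control mean below that background (6.76), and Mixl1 and Sox17 had depleted means below it (6.87 and 6.91). These genes therefore lay above it only through the group where they were higher.

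Receptor genes outside the 9 were split. Tgfbr1, a type I receptor gene of TGF-beta, stood at 0.81 (limma adjusted p = 0.0658), Acvr2a, the other activin type II receptor gene, at 0.78 (0.0806) and Acvr1, a type I receptor gene of the BMP branch, at 0.69 (0.120), all 3 without overlap, and at 0.58, 0.47 and 0.39 without control replicate 2. The remaining 4 receptor and co-receptor genes were negative, from −0.55 (Tgfbr3) to −0.21 (Tgfbr2), and included Cfc1, the relative of Tdgf1, at −0.48. Tgfbr3 and Cfc1 were lower without overlap. Tgfbr2 and Acvr1c (−0.30) overlapped between groups, and their negative values rested on control replicate 2. Tgfbr2 read 7.22 and 7.19 on the depleted arrays, 7.16 on control replicate 1 and 7.68 on control replicate 2. For Acvr1c these signals were 6.16, 6.05, 5.68 and 7.13. Among Smads and partners, Trim33, which encodes a ubiquitin ligase that binds Smads, stood at 0.84 (limma adjusted p = 0.0550), Zfyve9, which encodes the Smad anchor SARA, at 0.70 (0.117) and Foxh1, the DNA-binding partner of Smad2, at 0.58 (0.190). Without control replicate 2 these 3 stood at 0.38, 0.19 and 0.30. Smad4, the common Smad, stood at 0.018 and Smad3 at −0.30, both with overlap between groups. The depleted mean of Smad3 was 7.41, against 7.37 on control replicate 1 and 8.05 on control replicate 2, so its sign rested on control replicate 2.

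Among the inhibitors other than Lefty, 0 passed the test. Of 7 genes listed as secreted or membrane inhibitors, 0 were called. Without overlap 0 were higher and 2 lower, against 27.4% and 33.3% of all genes. The 2 were Dact2 at −0.47, whose protein acts inside the cell, and the follistatin gene Fst at −0.35. Fstl3, a follistatin relative, stood at −0.44 (−0.089 without control replicate 2), and Ltbp1, which encodes a binding protein of latent TGF-beta, at 0.44 (−0.14 without that array). Cer1 and Dand5, which encode secreted Nodal antagonists of the Cerberus family, stood at −0.22 and 0.16. Both overlapped between groups, and both signs rested on control replicate 2. The depleted mean of Cer1 was 6.13, against 6.07 on control replicate 1 and 6.64 on control replicate 2. That of Dand5 was 6.23, against 6.40 and 5.75. Among 9 genes listed as inhibitors inside the cell, Nedd4l, a ubiquitin ligase gene acting on Smad2 and Smad3, stood at 0.86 (limma adjusted p = 0.0502, and 0.71 without control replicate 2). The ligase gene Smurf2 stood at 0.57. The repressor gene Tgif1 and Ski, the closest relative of Skil, stood at −0.50 and −0.49. Whether the change of Lefty1 differs from that of other inhibitors was not tested.

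Ligand, inhibin and convertase genes were negative in 6 of 7 cases and targets in 5 of 8, against 57.4% of all genes. Only 3 of those 7 and 3 of those 8 lay above the receptor background by their mean. Gdf3, a ligand gene that also uses Cripto, stood at 0.37, and among the negative ones were Inha, the inhibin alpha gene, at −0.62 (limma adjusted p = 0.165), and the convertase genes Pcsk5 and Furin at −0.51 and −0.49. Of 8 measured targets, Mixl1 stood at −0.53, Sox17 at −0.45 and Eomes at 0.45 (limma adjusted p = 0.226, 0.278 and 0.281), genes of the mesoderm and endoderm that Nodal induces in the mouse embryo. Without control replicate 2, Inha stood at −0.37, Mixl1 at −0.34 and Sox17 at −0.23. Pmepa1, a target gene that also encodes an inhibitor, stood at −0.011.

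**Figure D4:**
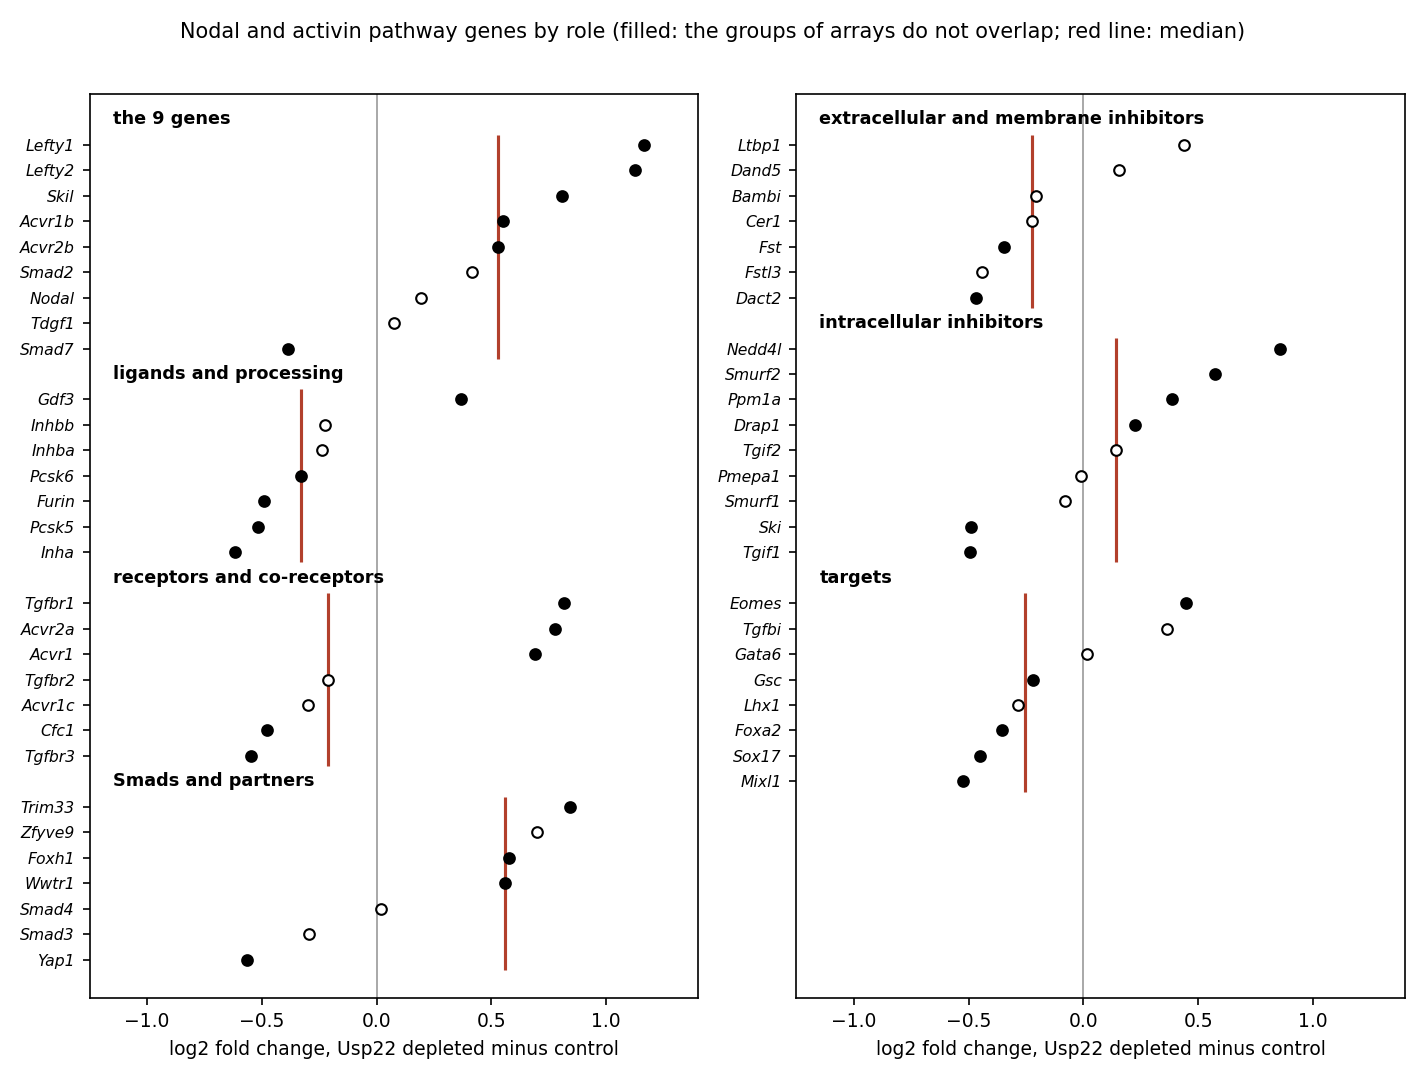
Log2 fold change (horizontal axis, Usp22 depleted minus control) of the 9 genes and of 45 other pathway genes grouped by role. Filled points have groups of arrays that do not overlap, open points overlap, and red lines are medians. Lefty1 and Lefty2, at 1.17 and 1.13, lie beyond every other point, the nearest being Nedd4l at 0.86.

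The genes whose pattern over the 4 arrays was most like that of Lefty1 or Lefty2 were sought among 9753 genes. These had a mean over the 4 arrays above the receptor background. The measure was the root mean square difference of log2 signals centred on each gene's mean. Nearest to Lefty1 were Slc16a3, a lactate transporter gene (0.089), Terc, the telomerase RNA gene (0.090), Acot1, an acyl-CoA thioesterase gene (0.092), Enpp3 (0.11) and B3galnt1 (0.11). Slc16a3, for example, had log2 signals of 9.64 and 9.72 in Usp22-depleted cells and 8.57 and 8.37 in control cells. Nearest to Lefty2 were Manea (0.039), Tmed5 (0.041), Prdx3, a mitochondrial peroxiredoxin gene (0.053), Bcap29 (0.062) and Mettl4 (0.064). Manea had log2 signals of 7.79 and 7.52 in Usp22-depleted cells and 6.93 and 6.01 in control cells, with the low control replicate 2 that Lefty2 also showed. Lefty2 ranked at 1012 among the genes nearest to Lefty1, and Skil at 57. Enpp3, B3galnt1, Manea, Tmed5 and Bcap29 lay below the background of 6.99 on both control arrays, so they passed the filter only through the depleted arrays. Prdx3 also had a control mean below it (6.86), with control replicate 1 above it at 7.31. These likenesses rest on 4 arrays and are a description.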

How the data were processed

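The authors deposited 1 linear intensity per probe set and array of a 1-colour Affymetrix array, for 28856 probe sets on 4 arrays. Per the labels' protocols, RNA was purified with Trizol and a column and labelled with biotin as cDNA. How probes were summarised, corrected and normalized is not given in the sources used here. Array medians ran from 110 to 128, and 0 pairs of arrays were identical. Values were logged to base 2 and then quantile-normalized between arrays. Rows were named through GEO's platform annotation (21789 rows with 1 symbol, of which 21698 matched the mouse RefSeq table), and the brightest row per gene was kept. Groups came from the titles. The test was limma's moderated linear model (version 3.58.1, under R 4.3.3) with a two-sided p, adjusted by Benjamini-Hochberg over 19938 genes and called under 0.05. With 2 residual and infinite prior degrees of freedom, the standard error was 0.27 (log2) for every gene, and no change under 0.86 was called. The number of arrays limits the precision. The test was run on simulated data first. The 9 genes, the pathway and marker lists, the tests and the alternatives were chosen with earlier results of these data known. The naming rule took the 9 genes, Usp22, the 3 pathway genes with the lowest p in each role and the 5 nearest to each Lefty gene. Other pathway genes, among them Tgfbr2, Tgfbr3, Acvr1c, Cfc1, Smad3, Smad4, Yap1, Cer1, Dand5, Fst, Ski, Gdf3 and Pmepa1, were named after their values were seen. Alternatives were the scaling, filters on dim genes, the mean of rows, an offset, the variance model, leaving out each array and the replicate number as a block.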

Additional observations from a re-analysis of the deposited data

How the results depend on the processing

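Across 13 alternatives, Nodal and Smad7 kept their sign and did not pass in any. Skil passed at a log2 fold change of 0.98 with each array centred on its median, 0.81 with the dimmer 0.5 of genes left out, above the receptor background and with limma's intensity trend (with or without robust settings), and 0.77 with an offset of 16 added to the intensities. Other pathway genes called, 0 as reported, numbered 2 in each of these settings and 1 with the mean of rows. With each array left out in turn, log2 fold changes ran from 1.15 to 1.20 for Lefty1, 0.70 to 1.56 for Lefty2, 0.75 to 0.89 for Skil, 0.24 to 0.88 for Acvr1b, 0.17 to 0.90 for Acvr2b, 0.076 to 0.76 for Smad2, −0.014 to 0.17 for Tdgf1 (−0.0070 without depleted replicate 2) and −1.16 to −1.09 for Usp22. The number of the 9 genes called ran from 0 to 6, those without overlap at 1.5-fold from 3 to 6, and other pathway genes called from 0 to 25 of 45, the 25 without control replicate 1, where 24.6% of all genes were called higher and 21.4% lower. The calls of Lefty1, Lefty2 and Usp22 were lost without either depleted array, where a single depleted array is assumed to vary like the controls and 0 (without replicate 1) and 1 (without replicate 2) of all genes passed. Ltbp1 ran from −0.14, without control replicate 2, to 1.02, without control replicate 1. The shares of all genes called, 2.62% higher and 0.105% lower as reported, were 0.376% and 0.0502% without scaling, 6.94% and 1.48% with the dimmer 0.5 of genes left out, 6.91% and 1.53% above the receptor background, 1.91% and 1.70% with trend and robust settings, 1.64% and 1.43% with the trend alone, 3.31% and 0.236% with the offset, 4.29% and 0.211% with the replicate block, and 0.552% and 0.0351% without control replicate 2. With median centring 4.65% were called higher. The cause of these shifts was not tested. Acvr1b gave no value in either filter on dim genes. The shared replicate numbers do not pair the samples by any label, and the correlation of same-numbered deviations was 0.10 across genes. With the replicate number as a block, Skil passed (0.81, limma adjusted p = 0.0410), 3 other pathway genes were called (Tgfbr1, Trim33 and Nedd4l), and no call among the 9 genes was lost. With 2 arrays a group, changes under about 0.86 on the log2 scale did not pass in the fit used here.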
